A study of Mus musculus with 5 samples.

Results

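The chemokine and chemokine receptor genes were taken as all probe sets annotated to a single gene whose symbol is Ccl, Cxcl, Ccr, Cxcr or Ackr followed by a number, or is Cx3cl1, Cx3cr1, Xcl1, Pf4 or Ppbp. There were 72 such probe sets for 54 genes, of 22626 probe sets in all. Chemokines are small secreted proteins that guide migrating leukocytes, and they are sorted into CC, CXC, CX3C and XC classes by the spacing of the first cysteines of the mature protein. They act through receptors coupled to inhibitory G proteins on the target cell, whereas the atypical receptors of the Ackr group bind chemokines without this signal and remove or present them. In the artery wall, endothelial cells, smooth muscle cells, fibroblasts and macrophages all make chemokines, and the family is known for drawing monocytes and lymphocytes into diseased vessels.

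The samples were aortas of male mice that carried the db allele of Lepr, the gene of the leptin receptor, on both chromosomes (db/db) or on 1 (db/+), so that the controls carried the allele too. All were labelled as strain BKS.Cg-m +/+ Lepr db/J of the Jackson colony, aged 16 to 20 weeks and fed regular chow. In db/db mice the long form of the receptor is not made, and obesity and diabetes follow, while db/+ mice stay lean. According to the design text, an array held pooled RNA of 6 aortas freed of adventitia and periaortic fat; 3 arrays of db/db pools (replicates 1, 2 and 3) and 2 of db/+ pools (replicates 2 and 3) were analysed, and the remaining db/+ pool of that design is not used here. Values are Affymetrix MAS5 signals, linear background-corrected intensities with no absolute unit, and the number of arrays limits their precision.

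The tissue label was checked against smooth muscle genes. Acta2, smooth muscle actin, had 9146.7, 8466.8 and 7626.4 in db/db pools, against 6378.6 and 8534.4 in db/+ pools, and Myh11, smooth muscle myosin, lay between 3366.5 and 3916.4 in all arrays. Fat transcripts were also present in every pool, since Ucp1 of brown fat had 2136.2, 4334.5 and 3444.7 in db/db, against 2503.4 and 2665.3 in db/+. Over probe sets, any pair of arrays correlated with r between 0.9505 and 0.976, and the pairs that hold db/db replicate 1 had the range 0.9505 to 0.9643. Leukocyte genes were measured beside those of the wall, and in such bulk RNA fewer cells of a type and less RNA per cell cannot be told apart.

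Of the 54 genes, 18 encode CC ligands, 14 CXC ligands, 16 signalling receptors and 4 atypical receptors, and Xcl1 and Cx3cl1 are the ligands of the remaining classes. A probe set was tested only when its mean over the 5 arrays exceeded 40.6, the 40th percentile of all probe sets, and 24 probe sets of 20 genes did. Of these 24, 16 had a mean above that level in both genotypes, 7 only in db/db and 1 only in db/+, so the last 8 were let in by the genotype in which they were brighter. The 1 let in by db/+ was the dimmer probe set of Ccl9. The 7 let in by db/db were the tested ones of Ccl11, Ccl27a, Ackr2, Ccr10, Cxcr6 and Cxcl14 and the dimmer tested one of Cx3cl1. The other 48 probe sets, of 40 genes, had means between 2.42 and 39.6 and are described by their signals. Of 15 genes with several probe sets, 8 had probe sets that differed in the sign of their log2 change when all were fitted.

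Promoter sequences are shown for Ccl6, Ccl9 and Cxcl14, the genes with the smallest p. They are RefSeq promoters of build GRCm38.p6, each with 250 bases before and 50 after the start of the gene, read on the minus strand, and 41 of the 54 genes had an entry. Capitals mark matches, on either strand, to the ETS core GGAAGT, the TATA box TATAAA and the GC box GGGCGG, a set of motifs chosen after the sequences had been seen.
Ccl6 (chr11:83593038-83593337): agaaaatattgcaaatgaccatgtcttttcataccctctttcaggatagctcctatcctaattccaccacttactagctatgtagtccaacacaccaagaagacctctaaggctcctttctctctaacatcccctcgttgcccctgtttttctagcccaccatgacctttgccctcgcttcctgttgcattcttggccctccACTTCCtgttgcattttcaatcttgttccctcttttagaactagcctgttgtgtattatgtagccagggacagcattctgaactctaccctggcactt
Ccl9 (chr11:83578587-83578886): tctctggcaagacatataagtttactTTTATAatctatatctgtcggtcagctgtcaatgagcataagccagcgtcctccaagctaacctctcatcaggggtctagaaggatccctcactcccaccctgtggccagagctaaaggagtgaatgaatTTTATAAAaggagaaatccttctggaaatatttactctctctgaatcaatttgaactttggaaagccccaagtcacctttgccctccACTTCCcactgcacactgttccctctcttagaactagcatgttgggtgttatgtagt
Cxcl14 (chr13:56296502-56296801): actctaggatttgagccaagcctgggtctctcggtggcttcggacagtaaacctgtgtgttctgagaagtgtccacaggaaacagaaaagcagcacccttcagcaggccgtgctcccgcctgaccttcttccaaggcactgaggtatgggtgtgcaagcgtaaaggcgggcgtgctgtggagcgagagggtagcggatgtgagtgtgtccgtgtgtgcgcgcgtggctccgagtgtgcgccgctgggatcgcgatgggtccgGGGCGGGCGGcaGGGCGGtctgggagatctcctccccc

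Ccl6 and Ccl9 lie side by side among the coding genes of a CC ligand cluster on chromosome 11, with Ccl5 before Ccl9 and Ccl3 after Ccl6. Their promoters shared a stretch around the start, with 59 identical bases over 74 aligned positions (79.7%), and the ETS core of each, in its reverse form, lies in that stretch. The ETS core, which PU.1 and other factors of myeloid cells bind, occurred in 23.8% of 32851 promoters of all genes and in 20 of the 45 promoters of chemokine and receptor genes. TATA boxes occurred in 13.6% of all promoters and in 13 of the 45, and Ccl9 held 3 matches, of which a pair overlap, while these letters are not in the Ccl6 window. GC boxes occurred in 35.7% of all promoters and in 9 of the 45, and the 3 matches of Cxcl14, of which the first pair overlap, lay just after its start. A match describes letters and is neither a site nor a cause.

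The comparison of db/db with db/+ asked which chemokine transcripts differ between diabetic and control aortas. At an adjusted p under 0.05 (limma, Benjamini-Hochberg over 13574 probe sets), 0 of the 24 tested probe sets passed, and over all probe sets 0.0958% passed as lower and 0% as higher. At an unadjusted p under 0.05, 4 of the 24 were lower and 4 higher in db/db, where 4.19% and 3.97% of all probe sets were (8.16% in either direction). All 4 lower ones were probe sets of Ccl6 and Ccl9, so they stand for 2 genes. With 1 probe set per gene, 5 of 20 genes were at that level, against 8.63% of 8261 genes. At an adjusted p under 0.1, 2 were lower (Ccl6 and Ccl9) and 1 higher (Cxcl14), where 0.309% and 0.0516% of all probe sets were. The log2 change was negative at 9 of the 24 and at 47.1% of all probe sets. Groups did not overlap at 12 of the 24, 5 lower and 7 higher, against 25% of all probe sets (12% lower and 13% higher). The 5 lower were the 4 of Ccl6 and Ccl9 and 1 of Ackr3. The count of 4 higher probe sets was 2 without any 1 of the 5 arrays, and the sum of 8 was 5 without db/+ replicate 3. The median log2 change was 0.15 over the 24 and 0.02 over all 13574, and the median of the 24 was −0.05 without db/db replicate 1. Over all 72 probe sets, fitted without the filter, the median was 0.04. Because 8 of the 24 were admitted by 1 genotype, these counts describe the tested probe sets and not the whole family.

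**Figure D1:**
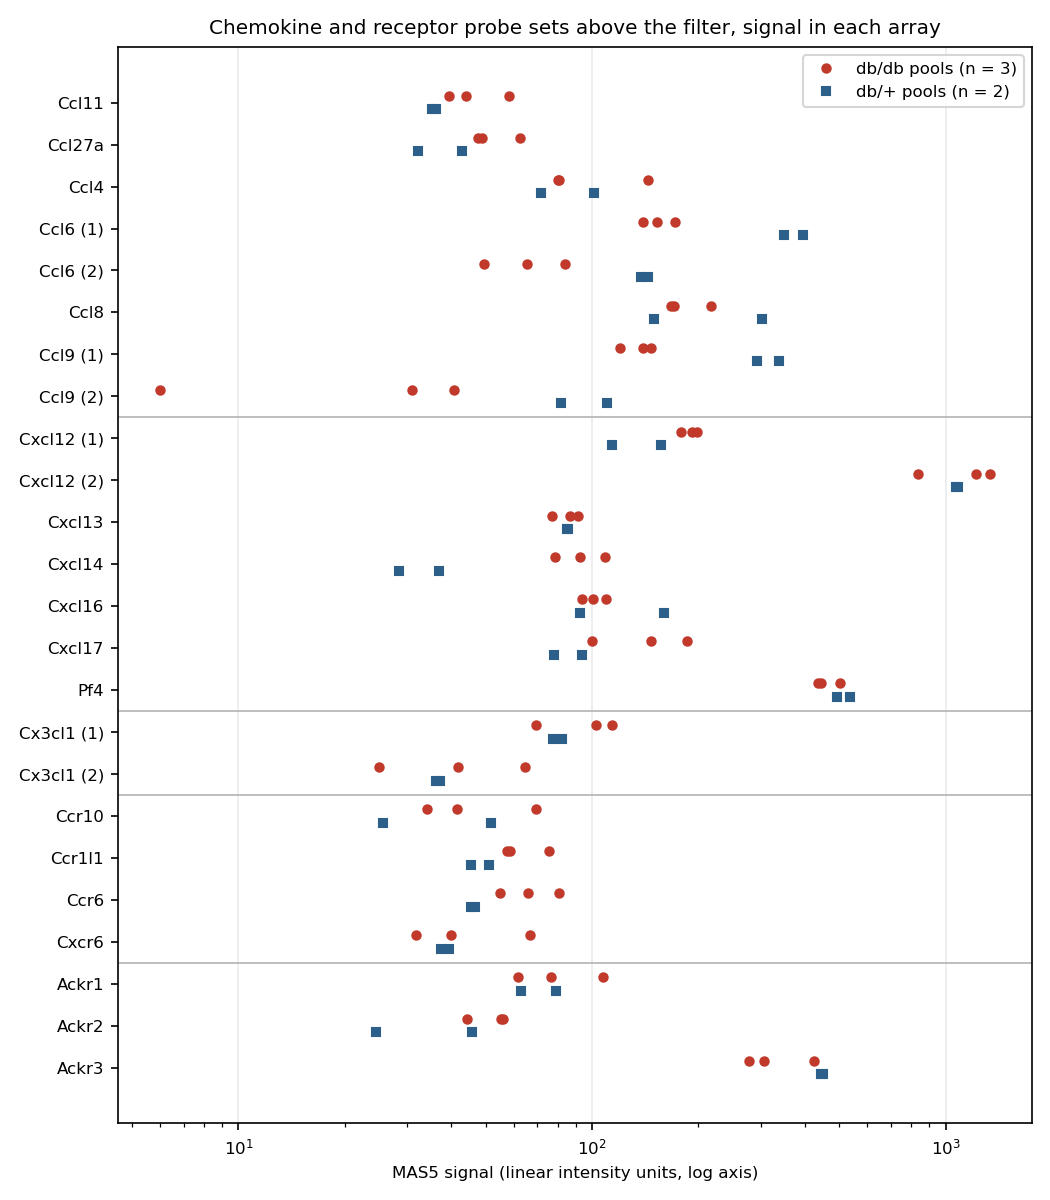
MAS5 signal (log axis) of the 24 tested probe sets, grouped from top to bottom as CC, CXC and CX3C ligands, signalling receptors and atypical receptors, with circles for the 3 db/db pools above squares for the 2 db/+ pools. Numbers in brackets separate probe sets of 1 gene; the circles and squares of Ccl6, Ccl9 and Cxcl14 are clearly apart, whereas those of several receptors overlap.

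Among the CC ligands, Ccl6 and Ccl9 had the lowest log2 changes. Both are made by macrophages and other myeloid cells of the mouse and act through the receptor Ccr1. Ccl6 had 139.2, 171.6 and 153.1 at its brighter probe set in db/db pools, against 349.4 and 394.4 in db/+ pools. The db/db arrays lay within a narrow range and far below the db/+ arrays, with means of 155 ± 16.3 (SD, n = 3) and 372 ± 31.8 (SD, n = 2). The log2 change was −1.19 (SE 0.16, limma unadjusted p = 6.9e-05, adjusted p = 0.056), so that it lay just outside the threshold. A dimmer probe set of Ccl6, whose design may let related transcripts bind, had 65.4, 84.0 and 49.6 in db/db, against 143.9 and 138.0 in db/+. Its groups were apart as well, with a log2 change of −0.95 (SE 0.20, adjusted p = 0.20).

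Ccl9 showed a like pattern at its brighter probe set, with 146.4, 119.7 and 139.1 in db/db pools and 291.9 and 338.4 in db/+ pools. No db/db array came near the lower db/+ array, and the log2 change was −1.13 (SE 0.17, adjusted p = 0.061). At the dimmer probe set Ccl9 had 31.0, 6.0 and 40.7 in db/db, against 81.6 and 109.9 in db/+. Here db/db replicate 2 was far below the other db/db arrays, and the log2 change of −1.51 (SE 0.36, adjusted p = 0.25) was less precise. The db/db mean of 25.9 was under the filter level, so this probe set was tested only through its db/+ mean of 95.8. The brighter probe sets of Ccl6 and Ccl9 passed the threshold under 5 of 15 alternative settings. Without db/+ replicate 2 the adjusted p was 0.34 for Ccl6 and 0.36 for Ccl9, and without db/+ replicate 3 it was 0.54 for both, in fits that leave 1 db/+ array and assume that it varies like the others.

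**Figure D2:**
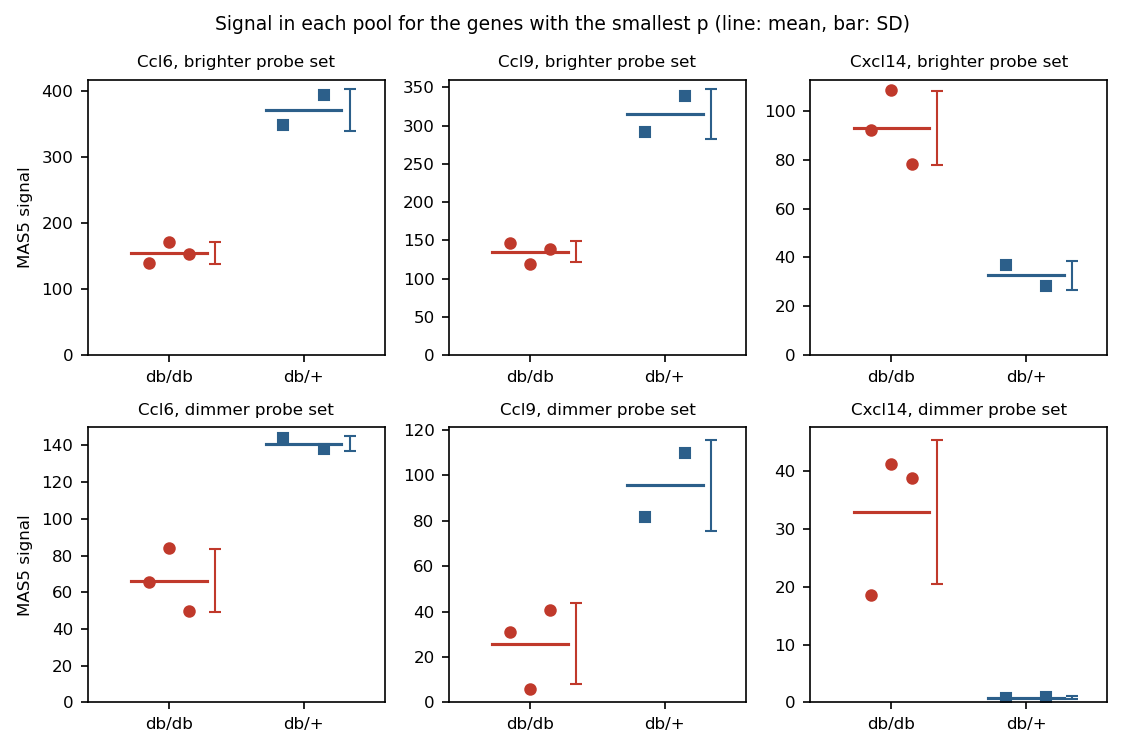
MAS5 signal (linear axis from 0) of each pool for the brighter (upper row) and the dimmer (lower row) probe set of Ccl6, Ccl9 and Cxcl14, with db/db on the left and db/+ on the right of each panel, the group mean as a line and the SD as a bar. In all 6 panels the arrays of the genotypes do not overlap; Ccl6 and Ccl9 are lower and Cxcl14 is higher in db/db.

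The neighbours of Ccl6 and Ccl9 in the cluster gave other values. Ccl4, a ligand of activated macrophages and lymphocytes, had 143.8, 80.0 and 80.6 in db/db, against 71.9 and 101.6 in db/+ (0.17 on the log2 scale, SE 0.26, adjusted p = 0.91), and only db/db replicate 1 lay above the db/+ arrays. Its sign turned without db/db replicate 1 (−0.08) and without db/+ replicate 2 (−0.04). Ccl3, a ligand of Ccr1 like Ccl6 and Ccl9, was near the bottom of the scale at 3.3, 3.5 and 2.6 in db/db and 2.1 and 6.3 in db/+. Ccl5, a ligand of T cells and platelets, varied within both genotypes, with 43.7, 8.3 and 18.2 in db/db, against 12.1 and 44.8 in db/+. The difference between the changes of these genes was not tested.

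Of the CC ligands in the other chromosome 11 group, Ccl8, a monocyte chemoattractant protein, had 167.5, 216.8 and 170.6 in db/db, against 149.8 and 303.0 in db/+. The db/+ arrays bracketed the db/db arrays, and the log2 change of −0.20 (SE 0.27, adjusted p = 0.90) was 0.27 without db/+ replicate 3. Ccl11, the eosinophil attractant eotaxin, had 43.9, 39.4 and 58.4 in db/db, against 35.3 and 36.3 in db/+, without overlap but by a small amount (0.28, SE 0.18, adjusted p = 0.77). Ccl2, the main attractant of inflammatory monocytes, was below the filter with 22.1, 37.6 and 39.3 in db/db, against 39.1 and 56.6 in db/+, and the highest db/db value passed the lower db/+ value. Ccl12, a close relative of Ccl2, had 6.3, 14.4 and 29.8 in db/db and 27.8 and 34.5 in db/+, and Ccl1 and Ccl7 lay between 12.8 and 32.8, above the db/+ arrays on every db/db array. Ccl27a, a skin ligand of Ccr10 on chromosome 4, had 47.5, 49.0 and 62.7 in db/db, against 32.3 and 42.9 in db/+. Its log2 change was 0.37 (SE 0.18, limma adjusted p = 0.66) and was 0.22 without db/+ replicate 2. The design of its only probe set may let other transcripts bind.

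Ccl24, a second eosinophil attractant, was below the filter with 14.7, 12.0 and 14.6 in db/db, against 40.3 and 24.0 in db/+. Without the filter its change was −0.67 on the log2 scale (SE 0.19, adjusted p = 0.52). The remaining dim CC ligands were Ccl17, Ccl20, Ccl22, Ccl25 and Ccl28, whose signals overlapped between genotypes at 5 of their 6 probe sets. At the exception, a probe set of Ccl28, signals averaged 12.7 ± 7.7 in db/db (SD, n = 3) and 2.3 ± 0.849 in db/+ (SD, n = 2), and its other probe set overlapped.

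The CXC ligands were led by Cxcl14, a ligand of epithelia and stroma that brown fat also secretes and whose receptor is not settled. Its brighter probe set had 92.2, 108.6 and 78.4 in db/db pools, against 37.0 and 28.5 in db/+ pools. Every db/db array exceeded every db/+ array, the means being 93.1 ± 15.1 (SD, n = 3) and 32.8 ± 6.01 (SD, n = 2), and the db/+ mean lay under the filter level. The log2 change was 1.16 (SE 0.18, limma unadjusted p = 0.00017, adjusted p = 0.068). It ranged from 0.70 with a pseudocount of 64 to 1.48 with a pseudocount of 1, and it passed under array weights (adjusted p = 0.043). The adjusted p was 0.36 without db/+ replicate 2 and 0.64 without db/+ replicate 3. A second Cxcl14 probe set, below the filter, had 18.6, 41.3 and 38.9 in db/db, against 0.7 and 1.0 in db/+, which is 1.5 on the log2 scale without the filter (SE 0.24, adjusted p = 0.22).

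Cxcl17, a ligand of mucosal tissue that attracts myeloid cells, had 185.7, 99.7 and 146.7 in db/db, against 78.3 and 93.5 in db/+. The groups did not overlap but db/db replicate 2 lay close to the db/+ arrays (log2 change 0.62, SE 0.24, adjusted p = 0.56), and without db/db replicate 1 the change was 0.43. Cxcl12, the stromal ligand of Cxcr4 and Ackr3, had different values at its probe sets. At the dimmer one it had 178.0, 198.4 and 191.9 in db/db, against 114.0 and 156.4 in db/+ (0.46, SE 0.18, adjusted p = 0.56), and this value was 0.25 without db/+ replicate 2 and 0.66 without db/+ replicate 3. At the brighter one it had 1339.3, 835.7 and 1220.2 in db/db, against 1082.9 and 1067.6 in db/+, and the db/db arrays spread to both sides of the db/+ arrays (0.05, SE 0.22, adjusted p = 0.97). Leaving out db/db replicate 1 gave −0.09, and leaving out replicate 3 of db/db gave −0.02.

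Pf4, the platelet and macrophage ligand also called platelet factor 4, had 503.6, 444.7 and 434.8 in db/db, against 492.6 and 537.6 in db/+, with overlap (−0.16, SE 0.16, adjusted p = 0.87). Cxcl16, a transmembrane ligand of Cxcr6 that also takes up oxidised lipoprotein, had 100.5, 93.9 and 109.6 in db/db, against 92.6 and 160.1 in db/+ (−0.24, SE 0.22, adjusted p = 0.85; 0.11 without db/+ replicate 3). A dimmer Cxcl16 probe set had 17.7, 34.2 and 32.1 in db/db, against 42.5 and 50.8 in db/+, with no overlap (−0.53 without the filter, limma adjusted p = 0.70). Like the dimmer one of Ccl6, its design may let related transcripts bind. Cxcl13, the B cell attractant, had 86.4, 91.0 and 77.1 in db/db, against 85.7 and 85.2 in db/+, and the log2 change of −0.01 was 0.05 without db/db replicate 3. The probe sets of Cxcl13 disagreed, for the second, just below the filter, had 12.8, 20.8 and 29.4 in db/db, against 45.9 and 89.1 in db/+ (−1.15 without the filter, SE 0.29, adjusted p = 0.46).

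Neutrophil attractants were dim. Cxcl1 had 2.4, 2.3 and 23.1 in db/db, against 21.4 and 23.4 in db/+, so that db/db replicate 3 sat with the db/+ arrays and apart from its own group. Cxcl2 and Cxcl5 lay between 1.2 and 22.2, Ppbp of platelets averaged 28.6 ± 10.2 in db/db and 29.5 ± 14.8 in db/+, and Cxcl15, a ligand of mouse lung, had 23.3, 7.0 and 5.6 in db/db and 1.7 and 3.5 in db/+. The interferon-induced ligands of Cxcr3 were dim too. Cxcl9 had 23.4, 34.9 and 38.9 in db/db and 40.4 and 41.8 in db/+ without overlap, Cxcl10 lay between 12.0 and 21.3, and the probe sets of Cxcl11 had opposite signs (0.34 and −0.57 without the filter). Xcl1, a ligand of cytotoxic lymphocytes, lay between 14.4 and 33.6 with overlap. Cx3cl1, the membrane-bound ligand fractalkine, had 113.8, 69.5 and 102.3 in db/db, against 82.0 and 77.6 in db/+ at its brightest probe set (0.19, SE 0.20, adjusted p = 0.87), a second tested probe set had 0.13 (SE 0.26), the dimmest lay between 2.1 and 3.2, and the arrays overlapped at all 3.

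**Figure D3:**
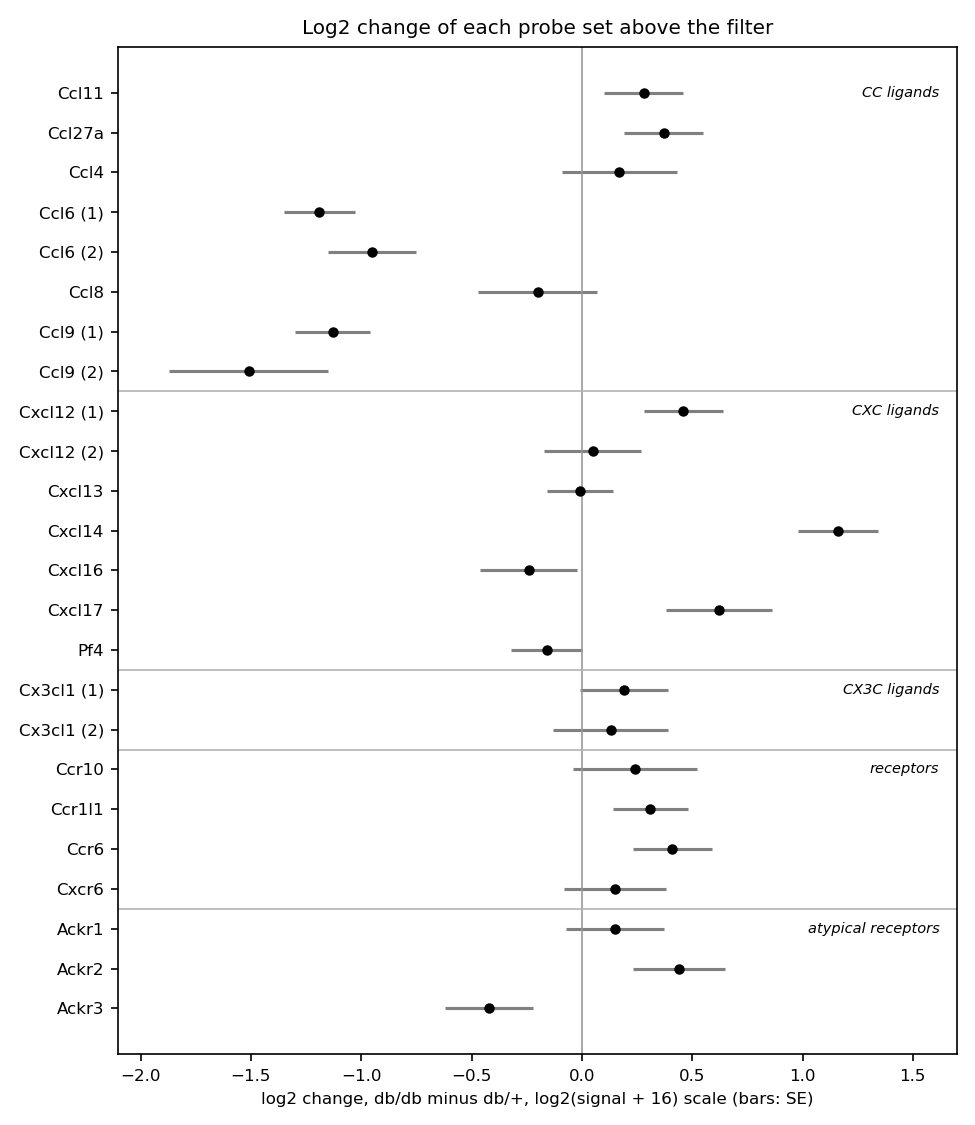
Log2 change, db/db minus db/+ on the log2(signal + 16) scale, of the 24 tested probe sets in the same order, with bars of 1 SE. Ccl6 and Ccl9 lie between −1.51 and −0.95 and Cxcl14 at 1.16, while the 7 receptor probe sets at the bottom lie between −0.42 and 0.44.

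Most probe sets of signalling receptors were below the filter. Of 23 probe sets for 16 receptor genes, 4 passed the filter, and none of the 4 passed the test (limma, with 1 at an unadjusted p under 0.05). Ccr6, the receptor of Ccl20 on B cells and some T cells, had 80.5, 65.8 and 55.0 in db/db, against 45.4 and 46.6 in db/+, with no overlap (log2 change 0.41, SE 0.18, unadjusted p = 0.047, adjusted p = 0.61). Ccr1l1, a relative of Ccr1, had 58.8, 75.6 and 57.3 in db/db, against 51.1 and 45.6 in db/+, also without overlap (0.31, SE 0.17, adjusted p = 0.71; 0.20 without db/db replicate 2). Ccr10, the receptor of Ccl27a, had 69.4, 34.1 and 41.5 in db/db and 51.8 and 25.6 in db/+ (0.24, SE 0.28, adjusted p = 0.89; −0.11 without db/+ replicate 3). Cxcr6, the receptor of Cxcl16, had between 31.7 and 66.8 in db/db and 37.5 and 39.3 in db/+ (0.15, SE 0.23, adjusted p = 0.91), and db/db replicate 2 was the highest; its other probe set lay at 7.2 or less on every array.

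Ccr1, the receptor of Ccl6 and Ccl9, was below the filter. Its brighter probe set had 18.4, 26.8 and 27.9 in db/db, against 30.7 and 40.7 in db/+, with no overlap, and its other probe set lay between 6.1 and 11.5 with overlap. Ccr2, the receptor of Ccl2 on monocytes, was dim at all 3 probe sets, between 1.5 and 28.3. At 1 of them it had 3.2, 3.2 and 2.9 in db/db, against 11.5 and 18.7 in db/+ (−0.69 without the filter, SE 0.16, adjusted p = 0.40), whereas the other Ccr2 probe sets had 0.18 and 0.01. Cx3cr1, the fractalkine receptor of monocytes and resident macrophages, likewise had 1.4, 2.1 and 3.2 in db/db, against 11.9 and 10.2 in db/+ at 1 probe set (−0.57 without the filter), and 14.9, 26.7 and 29.5 in db/db, against 18.4 and 20.9 in db/+ at the other (0.14). Cxcr4, the receptor of Cxcl12, had 28.2, 28.6 and 13.5 in db/db, against 28.9 and 28.9 in db/+, where replicate 3 of db/db was apart and the other arrays nearly equal.

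Ccl20, the ligand of Ccr6, lay between 5.1 and 7.3. The lymphocyte receptors Cxcr3, Cxcr5, Ccr4, Ccr7, Ccr8 and Ccr9, the eosinophil receptor Ccr3 and the neutrophil receptor Cxcr2 were dim on every array, with signals between 1.1 and 43.7. Below the filter, arrays did not overlap at 10 probe sets lower and 7 higher in db/db among all 48, where 8.51% and 12.3% of all 9052 probe sets below the filter did not. Over all 72, arrays did not overlap at 29, against 23.3% of all 22626. Tested without a filter, 9 of the 72 probe sets were lower and 5 higher at an unadjusted p under 0.05, where 3.53% and 3.49% of all 22626 were, and none passed at an adjusted p under 0.05, as did 0.00442% of all probe sets as lower.

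Atypical receptors had 3 tested probe sets. Ackr3, which removes Cxcl12, had 277.4, 307.4 and 425.1 in db/db, against 449.8 and 445.5 in db/+, at a probe set whose design may let related transcripts bind. No db/db array reached the db/+ arrays, although db/db replicate 3 came close, and the log2 change was −0.42 (SE 0.20, adjusted p = 0.65), with a range of −0.59 to −0.30 over the alternatives. Ackr2, which takes up inflammatory CC ligands on lymphatic endothelium, had 44.3, 55.9 and 55.3 in db/db, against 45.7 and 24.5 in db/+ (0.44, SE 0.21, adjusted p = 0.65). This value was 0.13 without db/+ replicate 3 and 0.74 without db/+ replicate 2. Ackr1, the Duffy antigen of red cells and venular endothelium, had 76.6, 107.6 and 61.6 in db/db, against 78.9 and 62.9 in db/+ (0.15, SE 0.22, adjusted p = 0.91; −0.03 without db/db replicate 2). Ackr4, a scavenger of homeostatic ligands, and the second Ackr2 probe set were below the filter, between 1.1 and 40.1.

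Other genes of leukocyte attraction were read from a list of 73 symbols, of which 62 genes were on the array and 45 were above the filter. None passed at an adjusted p under 0.05 (limma, 1 probe set per gene), and at an unadjusted p under 0.05 4 were lower and 1 higher, where 4.27% and 4.36% of 8261 genes were (8.63% in either direction, and 0.121% at the adjusted threshold). The median log2 change of the 45 was −0.07. The receptors of complement fragments were lower by value, with C3ar1 at 95.1, 87.1 and 86.6 in db/db and 148.8 and 159.1 in db/+ (−0.69, SE 0.15, adjusted p = 0.21) and C5ar1 at −0.51 (SE 0.17, adjusted p = 0.46). Itgb2, the shared chain of the leukocyte integrins, had −0.66 (SE 0.21, adjusted p = 0.42), and Arrb1, a beta-arrestin that ends receptor signals, had −0.40 (SE 0.16, adjusted p = 0.57). Nfkb2, a subunit of NF-kappaB, had 109.0, 87.7 and 68.5 in db/db and 40.4 and 55.5 in db/+ (0.70, SE 0.21, adjusted p = 0.39). Grk6, a kinase that switches receptors off, had 0.54 (SE 0.27, adjusted p = 0.66).

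Markers of other cells were read beside these genes. Of 19 macrophage markers on the array, 16 were tested, all 16 had a negative log2 change with a median of −0.69, and 13 of them had an unadjusted p under 0.05, while none passed the adjusted threshold (limma). Of 8261 genes, 4.27% were lower at that unadjusted p, and 47.1% of all probe sets had a negative change. The list was chosen with earlier results known. Markers at a larger p were Adgre1 (−0.32), Mpeg1 (−0.42) and Ptprc (−0.17). Below the filter, Msr1 averaged 42.3 in db/db and 31.8 in db/+, Aif1 25.8 and 24.6, and Itgam 15.9 and 29.5. The summed signal of the 16 tested markers was between 3232 and 3845 in db/db and 5525 and 6969 in db/+, and no marker was at 0. The defining receptor gene Csf1r had 956.6, 855.0 and 839.9 in db/db, against 1099.3 and 1459.3 in db/+ (−0.51, SE 0.18), while Fcer1g, an Fc receptor chain, had −1.63 and Lgals3, galectin-3, had −1.15; the part of macrophage number in Ccl6 and Ccl9 was not tested. Mast cell markers, which had 4 of 5 tested genes negative, summed to between 335.6 and 410.1 in db/db and to 733.6 and 748.7 in db/+. The exception was Kit (0.04). Among mast cell markers below the filter, Ms4a2 averaged 16.4 in db/db and 17.1 in db/+, and Fcer1a 21.5 and 33.3. The 5 tested dendritic cell and class II genes were all positive with a median of 0.54, and their sum lay between 1969 and 2603 in db/db and 1353 and 1580 in db/+. Arrays did not overlap for the class II genes Cd74 (0.70), H2-Aa (0.54) and H2-Eb1 (0.72), but did for H2-Ab1 (0.27) and Flt3 (0.09). Below the filter, Itgax averaged 36.5 in db/db and 39.4 in db/+, Cd209a 38.9 and 42.2, and Ccr7 5.3 and 2.85.

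Brown adipocyte markers summed to 5783, 11260 and 10060 in db/db, against 7257 and 8360 in db/+. Here db/db replicate 1 lay below the db/+ arrays and the other db/db arrays above. Of the 7 markers, Elovl3, a fatty acid elongase of brown fat, stood at 1.16 on the log2 scale (SE 0.28, adjusted p = 0.25), whereas the other 6 lay between −0.07 and 0.29, the list had a median of 0.07, and the part of fat in Cxcl14 was not tested. Fibroblast markers summed to between 17710 and 21550 in db/db and to 17010 and 19740 in db/+, with overlap. Neutrophil markers had 3 of 8 genes above the filter, and their sum lay between 163.7 and 203.1 in db/db and 160.9 and 189.8 in db/+. Endothelial markers had 10 of 11 genes negative with a median of −0.43, and 6 were lower at an unadjusted p under 0.05 (limma), where 4.27% of 8261 genes were. Their sum lay between 1968 and 2347 in db/db and at 3013 and 2722 in db/+, without overlap. T cell markers had 1 of 8 genes above the filter, Zap70, a kinase of T cell receptor signalling, which had 440.2, 235.3 and 235.9 in db/db, against 170.0 and 155.3 in db/+. Its arrays did not overlap (0.78, SE 0.27, unadjusted p = 0.018, adjusted p = 0.47), and the CD3 genes Cd3d, Cd3e and Cd3g were dim and overlapped. All 7 B cell markers had a positive log2 change with a median of 0.26, none at an unadjusted p under 0.05 (limma). Their sum lay between 448.5 and 838.4 in db/db and at 573.9 and 501.6 in db/+. For every B cell marker but Ighm, db/db replicate 1 was the brightest array. Ms4a1 had 140.6, 48.9 and 42.8 in db/db, against 47.0 and 40.8 in db/+.

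The marker genes that passed the adjusted threshold were of other lists, and both were lower in db/db as were Ccl6 and Ccl9 by value. Lep, the leptin gene of fat cells, had 23.4, 12.0 and 35.0 in db/db, against 301.6 and 263.9 in db/+ (−2.96, SE 0.25, adjusted p = 0.0064). Prg4, the lubricin gene of the mesothelial list, had 74.6, 104.3 and 84.4 in db/db, against 249.3 and 254.4 in db/+ (−1.38, SE 0.17, adjusted p = 0.044). The arrays of the genotypes were far apart for both genes. Over the 3 tested mesothelial markers the sum lay between 328.4 and 385.2 in db/db and at 536.9 and 610.4 in db/+, with a median log2 change of −0.37. White adipocyte markers had a median of −0.10, and their sum, between 8153 and 13990 in db/db and at 11800 and 11320 in db/+, overlapped. Lymphatic endothelial markers summed to between 320.7 and 448.6 in db/db and to 523.7 and 548.4 in db/+, with a median of −0.28. The part of these cells in the chemokine values was not tested.

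**Figure D4:**
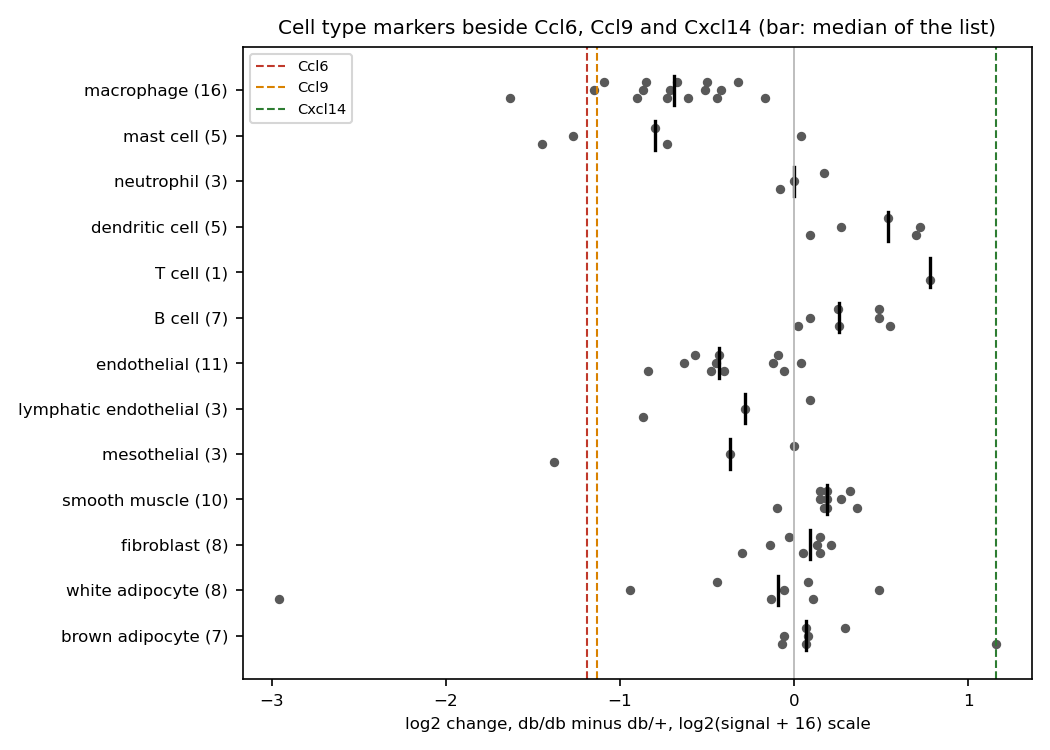
Log2 change, db/db minus db/+ on the log2(signal + 16) scale, of each tested marker gene (points, number in brackets) and the median of each list (black bar), with dashed lines at the brighter probe sets of Ccl6, Ccl9 and Cxcl14. All 16 macrophage points lie below 0, and the lines of Ccl6 at −1.19 and Ccl9 at −1.13 are near the low end of that list.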

How the data were processed

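Per the submitters' processing notes, the authors computed the deposited intensity values with MAS5 with no version named; the arrays had been scaled, since the trimmed mean of each lay between 150.049 and 150.053. The table held 22690 probe sets, and 64 controls were left out. Names came from the platform annotation; 4 probe sets with several symbols, a chemokine or receptor among them, were left out, and all 72 members matched RefSeq by Entrez identifier.

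Values were taken as log2(signal + 16), so changes of dim genes are understated. Probe sets with a mean above the 40th percentile went into a two-sided limma test (version 3.58.1, R 4.3.3; lmFit and eBayes, no covariates, 3 residual degrees of freedom, prior 5.39), with Benjamini-Hochberg adjustment over all 13574. The test was tried on simulated data. Members, marker lists and pathway lists were chosen with earlier results of these data known. By rule every gene is named, with arrays and statistics for probe sets at an unadjusted p under 0.05, for tested receptors and atypical receptors and for their best known ligands, plus up to 6 pathway genes of smallest p; other values were added after they had been seen. The design text calls the pools independent; p-values measure the spread between pools, not between single mice.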

Additional observations from a re-analysis of the deposited data

How the results depend on the processing

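The 24 tested probe sets were refitted under up to 15 alternatives; the filter on mean log2 values, a threshold of 0.1 and 1 probe set per gene were added after the data had been seen. Of 342 refits, 318 kept their direction and side of the threshold and 11 came to pass, 5 for Ccl6, 5 for Ccl9 and 1 for Cxcl14. The number of passing chemokine probe sets was 0 and became 2 with a pseudocount of 64, a filter at the 60th percentile, median centring or trend and robust eBayes, 3 with array weights and 3 at a threshold of 0.1; over all probe sets the 13 became 37, 35, 23, 41 and 48, 3 with a pseudocount of 1, 1 with no filter, 22 with the replicate number as a block, and from 1 to 13 with an array left out. At an unadjusted p under 0.05, the 8 of 24 (8.16% of all) became 14 of 72 with no filter (3.53% of all lower and 3.49% higher). They became 5 of 11 with the stricter filter and 5 of 20 genes with 1 probe set per gene (8.63% of genes). Without a db/db array they were 7 or 8 of 24. The 4 lower became 9 with no filter and 5 or 6 without a db/db array. The 4 higher became 2 with the stricter filter and 2 without a db/db array. Shares of all probe sets at this unadjusted p are not given for the stricter filter, the replicate block or the fits without an array. Those counts cannot be set against all probe sets. The 12 probe sets without overlap (25% of all) became 29 of 72 with no filter (23.3% of all), 6 of 11 with the stricter one (25.5% of all) and 14 to 17 without an array (36% to 49.8% of all). The median of 0.15 was −0.20 with the stricter filter, 0.00 with the replicate block and −0.05 to 0.17 without an array. With the replicate block, signs turned for Ccl4 (−0.08), the dimmer tested probe set of Cx3cl1 (−0.11) and the brighter probe set of Cxcl12 (−0.09). That Cxcl12 probe set also turned with median centring (0.00). Replicate 1 occurs only in db/db, so the block takes up that array. The log2 changes of the block therefore equal those without db/db replicate 1 and are not a separate check. Without an array, Ccl4 ranged from −0.08 to 0.38, Ccl8 from −0.68 to 0.27, the brighter probe set of Cxcl12 from −0.09 to 0.25, Cxcl13 from −0.06 to 0.05, Cxcl16 from −0.59 to 0.11, Ackr1 from −0.03 to 0.31 and Ccr10 from −0.11 to 0.59. A probe set that fell under the filter without an array has no refit there. Such gaps are Ccl11 without db/db replicate 3, Cxcr6 without db/db replicate 2 and the dimmer Ccl9 probe set without db/+ replicate 3. Ccr10 and the dimmer tested probe set of Cx3cl1 have none without db/db replicate 1. In each case that array was the brightest, so its weight is not seen. In the refits at hand, 15 of the 24 turned or moved by over 1.5 times without some array. Among them were also both tested probe sets of Cx3cl1 (0.07 to 0.37 and 0.12 to 0.37), Cxcr6 (0.13 to 0.32) and Pf4 (−0.22 to −0.10). The other 9 did not: the 4 of Ccl6 and Ccl9, and Ccl11, Cxcl14, Cxcl17, Ackr3 and Ccr6. The cause was not tested. Replicate numbers do not pair the pools in the labels. Deviations of same-numbered arrays from their group means correlated at 0.11 and 0.000515, and those of differently numbered arrays between −0.11 and 0.11. The deviations of 2 db/+ arrays mirror each other, so these values cannot show whether pools were paired. With the replicate block, 9 chemokine probe sets in place of 8 had an unadjusted p under 0.05, 5 of them higher in place of 4: Ccl27a and Ackr2 were gained and Ccr6 was lost (limma adjusted p between 0.59 and 0.76); the block changed no call at the adjusted threshold among chemokine probe sets. Signals under about 40.6 limit what the dim receptors show.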
